A study of Sus scrofa with 3 samples.

Results

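The miRNAs described here are the mature pig (Sus scrofa, ssc) names of the form miR-N with a number N of at least 4000, such as miR-4332, miR-4334-3p and miR-7134-3p. They were found by name alone, without use of their counts, though the rule was chosen with earlier results of these data known. They make up 111 of the 405 mature names analysed. Small RNA was sequenced from male liver at postnatal day 90, in 3 libraries with 1 per breed. The breeds were the Chinese wild boar, the domestic Enshi black pig of China and the Large White, a commercial pig of European origin. The labels speak of 3 male pigs and 3 liver samples, and they give no treatment, no strain beyond the breed and no word on pooling. With 1 library per breed no difference between breeds has a replicate check, and a difference between libraries includes any difference between single animals. No p-value is therefore given. Intervals are exact, at a level of 95%, and hold only the counting error of reads, since each breed has 1 library. Reads carry no molecular identifiers, so any copies of 1 molecule count as separate reads.

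A miRNA is cut from a hairpin precursor, first by Drosha in the nucleus and then by Dicer in the cytoplasm. One of the 2 arms of the hairpin, called 5p and 3p by its position, is usually loaded into an Argonaute protein, where its seed near the 5′ end pairs with target messenger RNAs. Names are numbered in the order in which miRNAs were registered, and the same number is given to related miRNAs of other species. Early numbers therefore hold most of the deeply conserved and abundant miRNAs. High numbers hold later and often species-specific entries, many of which were found by sequencing and predicted from few reads. The files do not say which names are found in pigs alone, so the numbering is used here only as a selection.

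The deposited reads summed to 7739853 in Enshi black liver, 7350179 in Large White liver and 7837309 in wild boar liver, so the depths were alike. The liver-specific miR-122 held 34.2%, 41.4% and 39.5% of the analysed reads in that order. The 4 liver markers summed to 341596 CPM for Enshi black, 657125 CPM for Large White and 439702 CPM for wild boar, on the TMM scale defined below. The 4 leucocyte markers summed to 10708 CPM in Enshi black liver, 20629 CPM in Large White liver and 3582 CPM in wild boar liver. The 3 red cell markers ranged from 3114 to 5324 CPM and the 3 striated muscle markers from 45 to 137 CPM, both with the library order of the leucocyte markers, and the 2 endothelial markers ranged from 10080 to 16284 CPM. As shares of the library totals, the red cell markers held 0.494% in Enshi black, 0.411% in Large White and 0.336% in wild boar. The Enshi black library was then the highest, while the other lists kept their library order. No marker of any list was at 0. No marker list summed highest in the wild boar library. In bulk liver, fewer cells of a type and less of a miRNA per cell cannot be told apart.

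Most high-numbered names had no read in liver. Of the 111 names, 76 (68.5%) were at 0 in every library, 11 had a highest count of 1 to 9 reads, 16 one of 10 to under 100 and 8 one of 100 or more. At least 10 reads, the level called detected here, were found for 21 of them in Enshi black liver, 17 in Large White liver and 21 in wild boar liver. In all, 24 names (21.6%) were detected in at least 1 library and 16 in all of them. Among the 294 names below 4000, 262 (89.1%) were detected in at least 1 library and 12 (4.08%) had no read. A count of 0 allows up to 3 reads, which is 0.323 CPM in Enshi black liver, 0.529 CPM in Large White liver and 0.356 CPM in wild boar liver.

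Detection differed between the blocks of numbers. In the block from 9784 to 9862, 69 of 79 names (87.3%) had no read in any library and 8 were detected in at least 1. The 10 names of that block with any read were miR-9784-5p, miR-9785-5p, miR-9788-3p, miR-9810-3p, miR-9820-5p, miR-9841-3p, miR-9843-3p, miR-9851-3p, miR-9858-5p and miR-9860-5p. In the block from 7134 to 7144, where the files list both arms of every precursor, 11 of 22 names were detected and 4 were at 0 throughout, namely miR-7140-5p, miR-7141-3p, miR-7143-5p and miR-7144-3p. Of the 8 names from 4331 to 4339, miR-4331, miR-4332 and miR-4334-3p were detected in every library. In the same block miR-4334-5p, miR-4335 and miR-4339 had no read, miR-4337 had 1 read in the Large White library alone, and miR-4338 had 3, 0 and 6 reads for Enshi black, Large White and wild boar. The remaining names were miR-6782-3p and miR-7857-3p, both detected. The plot of detection by number shows the share of silent names by block.

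**Figure D1:**
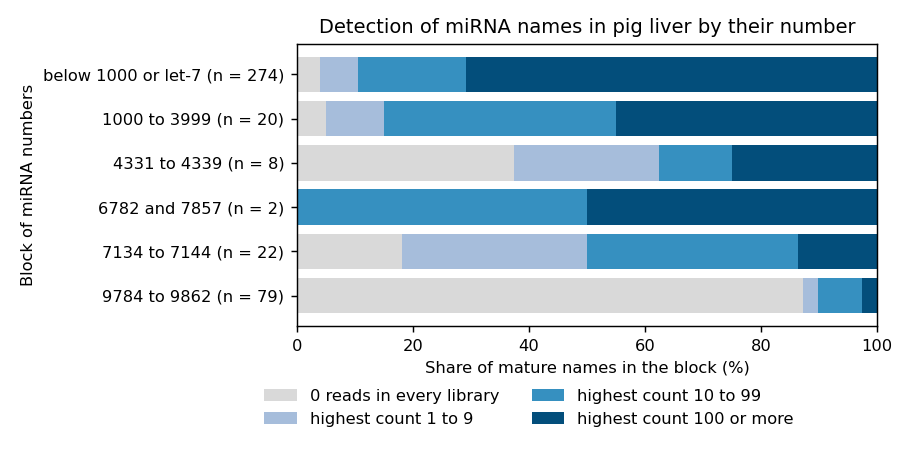
Each bar is a block of miRNA numbers and shows the share of its mature names (%) by their highest read count over the 3 libraries, with the number of names beside the block. Grey, the share with no read in any library, takes 87.3% of the block from 9784 to 9862 and 18.2% of that from 7134 to 7144, against 4.01% of the names below 1000.

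Together the 111 names held a small part of the liver miRNA reads, and a single miRNA made up most of it. They summed to 9069 of 7730934 analysed reads in the Enshi black library (0.117%, interval by the Clopper-Pearson method 0.115 to 0.12), 9017 of 7343033 in the Large White library (0.123%, 0.12 to 0.125) and 12245 of 7824836 in the wild boar library (0.156%, 0.154 to 0.159). The wild boar share was the highest, and its interval did not overlap those of the other breeds. That order depends on the scaling: on the scale of trimmed mean of M-values described below, the same reads came to 976 CPM for Enshi black, 1589.8 CPM for Large White and 1452 CPM for wild boar, so the Large White library was then the highest. miR-7134-3p gave 7070, 7405 and 8457 of these reads in the same order, which is 78%, 82.1% and 69.1% of them. Without miR-7134-3p, the others held 1999 reads in Enshi black liver, 1612 in Large White liver and 3788 in wild boar liver. Of those, miR-4332 and miR-4334-3p together gave 41%, 28.9% and 66.9%, so these 2 miRNAs held most of the remaining wild boar reads.

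Levels are given as CPM, counts per 1000000 reads of the library after scaling by trimmed mean of M-values (TMM), on the assumption that the bulk of miRNAs are equal in all libraries. Only 7 of the 111 names (6.31%) had a mean of at least 10 CPM of the library totals, against 68% of the 294 names below 4000. A ratio between libraries was computed for all 208 miRNAs past that minimum, and a miRNA was called higher or lower where the ratio was 2-fold or more and its interval did not include 1. Library totals in place of TMM raise every log2 ratio by 0.64 (Enshi black over Large White), 0.48 (wild boar over Large White) or 0.16 (Enshi black over wild boar). Where that ends or adds a call, the value on totals is given.

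miR-7134-3p was the most abundant high-numbered miRNA in every library. It stood at 761 CPM in Enshi black liver, 1306 CPM in Large White liver and 1003 CPM in wild boar liver. It was highest in the Large White and lowest in the Enshi black library on this scale, the same order as the summed liver markers, whose part in the result was not tested. By its mean of 1023 CPM it ranked 66 among the 317 miRNAs with a read, between miR-30c-5p at 1060.2 CPM and miR-199b-5p at 966 CPM. Reads per miRNA were not corrected for length or for how well each one ligates to an adaptor. None of its 3 ratios reached 2-fold: it was 1.72-fold higher in the Large White than in the Enshi black library (interval 1.66 to 1.77), 1.3-fold higher in the Large White than in the wild boar library (1.26 to 1.34) and 1.32-fold higher in the wild boar than in the Enshi black library (1.28 to 1.36). On library totals the log2 value for wild boar over Large White was 0.10 in place of −0.38, so that direction depends on the scaling. Its other arm, miR-7134-5p, was at 25.8 CPM in Enshi black liver, 31.4 CPM in Large White liver and 30.8 CPM in wild boar liver, and every interval of its ratios included 1.

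**Figure D2:**
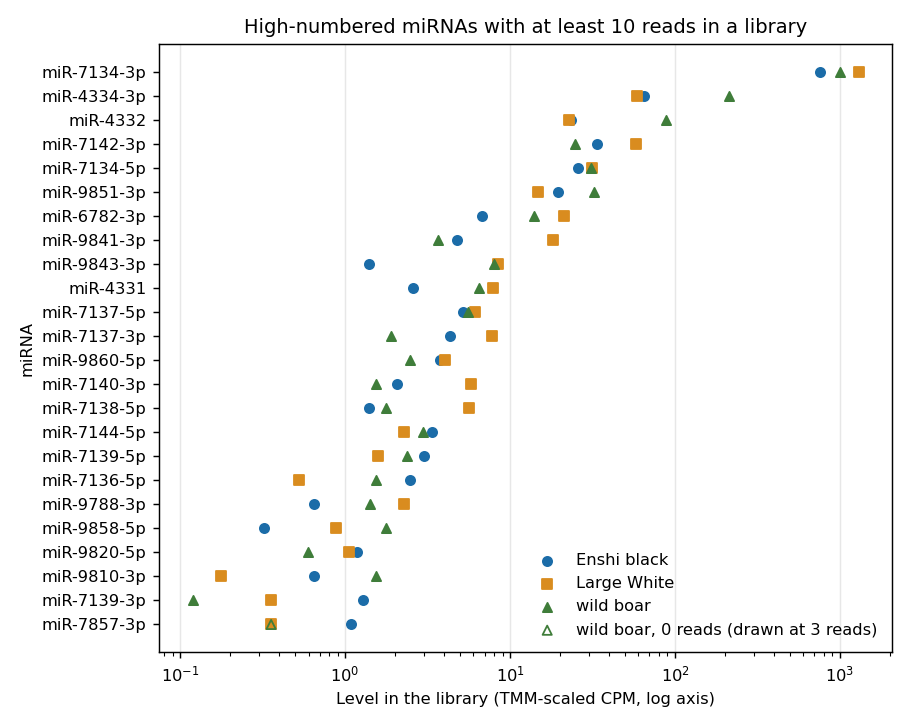
Each row is 1 of the 24 high-numbered miRNAs with at least 10 reads in a library, and each symbol its level in 1 library in TMM-scaled CPM on a log axis, with an open symbol for 0 reads drawn at 3 reads. miR-7134-3p stands at 761 to 1306 CPM, while miR-4334-3p and miR-4332 reach 213 and 88 CPM in the wild boar library against 59.2 to 65 and 22.9 to 23.3 CPM in the domestic breeds.

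miR-4332 and miR-4334-3p were high in the wild boar library alone. miR-4332 had 216 reads (23.3 CPM) in Enshi black liver, 130 reads (22.9 CPM) in Large White liver and 742 reads (88 CPM) in wild boar liver. Between the domestic breeds the ratio of Enshi black over Large White was 1.01, with an interval that included 1 (0.812 to 1.27), and the wild boar library was 3.84-fold above the Large White library (3.18 to 4.66). miR-4334-3p had 604 reads (65 CPM) in Enshi black liver, 336 reads (59.2 CPM) in Large White liver and 1794 reads (213 CPM) in wild boar liver. Its ratio of Enshi black over Large White, 1.1, also had an interval that included 1 (0.959 to 1.26). The closeness of the domestic breeds depends on the scaling. On library totals the ratios of Enshi black over Large White were 1.58 for miR-4332 and 1.71 for miR-4334-3p, both with intervals leaving out 1. With DESeq2 size factors they were 1.07, with an interval including 1, and 1.16, with an interval leaving it out. Both were called lower in Enshi black than in wild boar liver, at a log2 ratio of −1.92 (−2.15 to −1.70) for miR-4332 and −1.71 (−1.85 to −1.58) for miR-4334-3p. Each of these 4 calls also passed on library totals, on totals without miR-122 and with DESeq2 size factors.

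The value of miR-4334-3p rests in part on how reads were divided between names. It was the only high-numbered miRNA with a summed count more than 0.05 from a whole number, at 604.17 in the Enshi black and 1794.33 in the wild boar library, and 336 in the Large White library. Its decimals matched those of miR-339 on precursor mir-339-1 in the Enshi black library (4334.17) and on precursor mir-339-2 in the wild boar library (7225.33), and all were whole in the Large White library. The other precursor did not match in either case, at 3282.67 for mir-339-2 in the Enshi black and 8370.83 for mir-339-1 in the wild boar library. The deposited counts of the 3 summed to 8221.01 and 17390.49 there, the latter not whole. miR-339 itself stood at 819.9 CPM in Enshi black liver, 903 CPM in Large White liver and 1849.9 CPM in wild boar liver, so it was highest in the same library as miR-4334-3p. Its ratio of wild boar over Large White was 2.05 (1.99 to 2.12), against 3.59 (3.2 to 4.05) for miR-4334-3p. Of the reads of both names, miR-4334-3p took 7.35% in Enshi black liver (6.79 to 7.93), 6.16% in Large White liver (5.53 to 6.83) and 10.3% in wild boar liver (9.87 to 10.8). Whether reads of miR-339 were counted as miR-4334-3p was not tested.

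miR-9851-3p was likewise highest in the wild boar library, by a smaller margin. It had 180 reads (19.4 CPM) in Enshi black liver, 84 reads (14.8 CPM) in Large White liver and 272 reads (32.3 CPM) in wild boar liver. Wild boar liver was called 2.18-fold above Large White liver (1.7 to 2.82). Enshi black lay between the others, with log2 ratios of 0.39 over Large White (0.01 to 0.78) and −0.74 over wild boar (−1.02 to −0.46), neither of them called. On library totals the first of these was 1.03 and passed 2-fold.

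miR-7142-3p was instead highest in the Large White library. It had 312 reads (33.6 CPM) in Enshi black liver, 328 reads (57.8 CPM) in Large White liver and 209 reads (24.8 CPM) in wild boar liver. It was called 2.33-fold higher in the Large White than in the wild boar library (1.96 to 2.79). That call was lost on library totals, where it was −0.74 on the log2 scale, wild boar over Large White, in place of −1.22. Its ratios of Enshi black over Large White and over wild boar were 0.581 (0.496 to 0.68) and 1.35 (1.13 to 1.62), both under 2-fold. The summed leucocyte, red cell and striated muscle markers were also highest in Large White and lowest in wild boar liver on the TMM scale. On library totals the red cell markers were highest in Enshi black liver. The part of these cell types in the result was not tested.

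miR-6782-3p was lowest in the Enshi black library. It had 63 reads (6.78 CPM) there, 120 reads (21.2 CPM) in the Large White and 117 reads (13.9 CPM) in the wild boar library. It passed the expression minimum through the Large White and wild boar libraries. The Large White library was 3.12-fold above the Enshi black library (2.28 to 4.3), which was 2.01-fold on library totals and still called. Wild boar liver was 2.05-fold above Enshi black liver (1.49 to 2.83), which was 1.83-fold on totals and no longer called. The ratio of wild boar over Large White was 0.656 (0.504 to 0.853), under 2-fold. Its library order (Large White, wild boar, Enshi black) was that of the summed liver markers, whose part in the result was not tested.

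**Figure D3:**
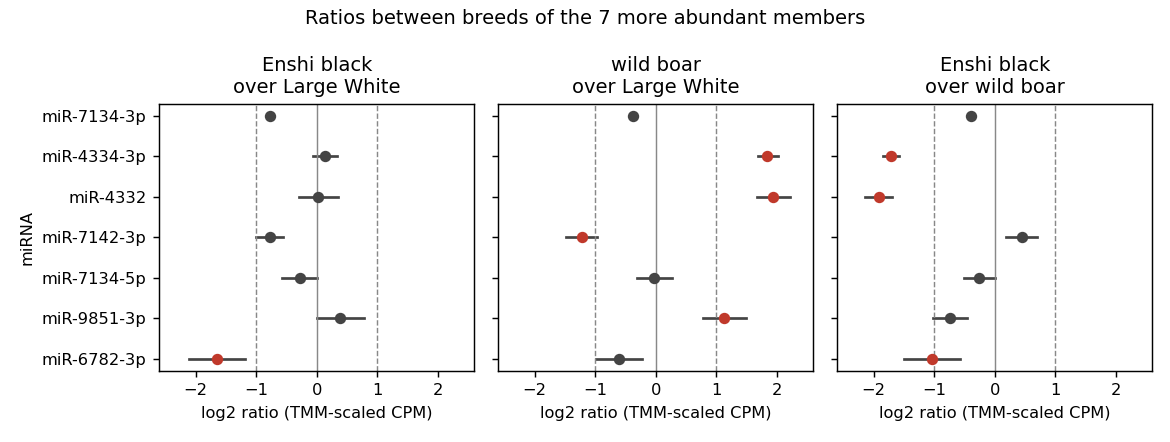
The log2 ratio of TMM-scaled CPM is plotted for the 7 high-numbered miRNAs past the expression minimum, with 1 panel per pair of libraries, bars for exact 95% counting intervals, dashed lines at 2-fold and red for those called. miR-4334-3p and miR-4332 stand at 1.84 and 1.94 for wild boar over Large White and near 0 for Enshi black over Large White on this scale.

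The calls among these 7 miRNAs are set beside those among all 208 miRNAs tested. For Enshi black over Large White, none of the 7 was higher and miR-6782-3p was lower, where 2.88% and 10.1% of all tested were called higher and lower. For wild boar over Large White, miR-4332, miR-4334-3p and miR-9851-3p were higher and miR-7142-3p lower, beside 11.5% and 13.5% of all tested. For Enshi black over wild boar, none was higher and miR-4332, miR-4334-3p and miR-6782-3p were lower, beside 6.25% in each direction. The pairs share libraries, so these counts are not independent of each other. The 7 had a median log2 ratio of −0.28 for Enshi black over Large White, −0.03 for wild boar over Large White and −0.74 for Enshi black over wild boar, where the medians over all tested were −0.04, −0.02 and −0.01. On library totals the first of these medians became 0.36 and the second 0.45, with 0.60 and 0.46 over all tested.

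The other 17 detected names lay under the minimum, and none of them had more than 103 reads in a library. Among all 24 detected names, 1 was higher and 7 were lower in Enshi black over Large White, where 4.55% and 13.6% of the 286 miRNAs with at least 10 reads in a library were so called. In wild boar over Large White 4 were higher and 5 lower, beside 12.9% and 16.4%, and in Enshi black over wild boar 3 were higher and 6 lower, beside 7.34% and 10.1%. These counts were added after the data were seen. On library totals the split of the first pair turned to 6 higher and 4 lower, beside 27.6% and 5.24% of the 286, so the calls among all names turned as well. That of wild boar over Large White became 5 higher and 4 lower, beside 22.0% and 10.5%, and that of Enshi black over wild boar 3 higher and 5 lower, beside 9.09% and 6.99%. The calls of miR-4331, miR-7140-3p and miR-9788-3p for Enshi black over Large White were lost on totals, at log2 ratios of −0.98, −0.87 and −1.19. Gained for the same pair were miR-9851-3p (above), miR-7139-3p at 2.51, miR-7857-3p at 2.25, miR-7139-5p at 1.56 and miR-7144-5p at 1.18. Of the 26 calls over the 3 pairs, 6 have fewer than 10 reads on one side. Of the 24 names, 5 had 10 reads in 1 library only, and 4 of the 26 calls are theirs. Such names had to be high in that library to be included, so their calls are given as counts and are no support for a difference.

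Several scarce names were highest in the Large White library. miR-9841-3p had 44 reads (4.74 CPM) in Enshi black liver, 103 reads (18.2 CPM) in Large White liver and 31 reads (3.68 CPM) in wild boar liver, which puts the Large White library 3.83-fold (2.67 to 5.59) and 4.94-fold (3.28 to 7.64) above the others. On library totals these were 2.46-fold and 3.54-fold. miR-7138-5p had 13, 32 and 15 reads for Enshi black, Large White and wild boar and was called lower in both the Enshi black and the wild boar library, on TMM and on totals. miR-7140-3p had 19, 33 and 13 reads in the same order, and its call against the wild boar library, at 3.77-fold (1.93 to 7.81), held on totals at 2.71-fold. miR-7137-3p had 40, 44 and 16 reads and was called lower in the wild boar library alone, by log2 ratios of −2.03 (−2.96 to −1.18) against Large White and, with wild boar as the reference, 1.18 (0.31 to 2.12) for Enshi black. miR-9841-3p, miR-7140-3p and miR-7137-3p had the library order of the summed leucocyte, red cell and striated muscle markers on the TMM scale. This order was Large White, Enshi black, wild boar, and on library totals the red cell markers did not keep it. miR-7138-5p had the order of the liver markers (Large White, wild boar, Enshi black). For 3 of these names the place of Enshi black against wild boar was within counting error. The ratio of Enshi black over wild boar was 1.29 (0.795 to 2.11) for miR-9841-3p and 1.33 (0.621 to 2.92) for miR-7140-3p. For miR-7138-5p it was 0.787 (0.344 to 1.77). The part of these cell types in the results was not tested.

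A pair of scarce names was low in the Enshi black library. miR-9843-3p had 13 reads (1.4 CPM) there, 48 reads (8.46 CPM) in the Large White and 67 reads (7.95 CPM) in the wild boar library. The Large White library was 6.05-fold (3.23 to 12.2) and the wild boar library 5.68-fold (3.11 to 11.2) above it, while the ratio of wild boar over Large White was 0.939 (0.639 to 1.39). Both calls passed on library totals, at 3.89-fold and 5.09-fold. miR-4331 had 24 reads (2.58 CPM), 45 reads (7.93 CPM) and 55 reads (6.52 CPM) for Enshi black, Large White and wild boar. It was 2.53-fold higher in the wild boar than in the Enshi black library (1.54 to 4.27), and the call against the Large White library, 3.07-fold (1.83 to 5.27), was under 2-fold on totals at 1.97. On the TMM scale both names had the library order of the summed liver markers, whose part in the results was not tested. The place of wild boar against Large White in that order was within counting error, also for miR-4331 at 0.822 (0.544 to 1.25). On library totals this ratio was 1.31 for miR-9843-3p and 1.15 for miR-4331, so the order was then not shared with the liver markers.

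The rest of the calls among scarce names rest on very few reads. miR-9810-3p, miR-7139-3p, miR-7857-3p and miR-9858-5p reached 10 reads only in the library where they were highest. miR-7136-5p had 23, 3 and 13 reads for Enshi black, Large White and wild boar, a ratio of 4.68 for Enshi black over Large White (1.41 to 24.4), and on library totals it was also called for wild boar over Large White at a log2 ratio of 2.02. miR-9810-3p had 6, 1 and 13 reads, a ratio of 8.75 for wild boar over Large White (1.31 to 372). miR-7139-3p had 12, 2 and 1 reads, a ratio of 10.9 for Enshi black over wild boar (1.61 to 466). These intervals reach close to 1, so the size of these differences is not fixed by the counts. miR-7857-3p had 10, 2 and 0 reads and was at least 3.03-fold higher in the Enshi black than in the wild boar library, taking 3 reads as the limit of the 0 and the 10 reads without their error. With the error of both counts the lower limit of the interval was 2.03. miR-9858-5p had 3, 5 and 15 reads and was called lower in Enshi black than in wild boar liver, at a ratio of 0.182 (0.0337 to 0.642). miR-9788-3p, counted on 2 precursors, had 6, 13 and 12 reads.

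On the TMM scale no call was made for the other detected names, while miR-7139-5p and miR-7144-5p were called on library totals, as given above. miR-7137-5p had 48, 35 and 47 reads for Enshi black, Large White and wild boar, miR-7139-5p 28, 9 and 20, miR-7144-5p 31, 13 and 25. miR-9860-5p had 35, 23 and 21 reads, and miR-9820-5p 11, 6 and 5. The 11 names with 1 to 9 reads at most are too shallow to compare. They were miR-4337, miR-4338, miR-7135-5p, miR-7135-3p, miR-7136-3p, miR-7138-3p, miR-7141-5p, miR-7142-5p, miR-7143-3p, miR-9784-5p and miR-9785-5p.

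Both arms are listed for 12 of the precursors, and 8 of them had 10 or more reads from the arms together in every library. Arm preference differed from precursor to precursor. Among these 8, reads of both arms were found for mir-7134, mir-7137, mir-7138, mir-7139 and mir-7142. Outside them, mir-7135 and mir-7136 also had reads of both arms, but fewer than 10 together in at least 1 library. mir-7134 gave almost all reads from the 3p arm, with a 5p share of 3.28% in Enshi black liver (2.89 to 3.72), 2.35% in Large White liver (2.02 to 2.71) and 2.98% in wild boar liver (2.64 to 3.36). The Enshi black and Large White intervals did not overlap, while that of wild boar overlapped both. Arm shares were computed for the high-numbered precursors alone, so there is no share over all precursors to set beside this. mir-7142 was also read from the 3p arm, with 1 of 313, 2 of 330 and 2 of 211 reads from the 5p arm. mir-4334 had no 5p read among 604, 336 and 1794. With 3 reads taken as the limit of a 0, that is a 5p share of up to 0.497%, 0.893% and 0.167%. The upper limits of the exact intervals were 0.609%, 1.09% and 0.205%. mir-7140 had no 5p read among 19, 33 and 13, and mir-7144 no 3p read among 31, 13 and 25.

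mir-7137 used both arms and was the precursor whose balance varied most between libraries. Its 5p share was 54.5% in Enshi black liver (48 of 88 reads, 43.6 to 65.2), 44.3% in Large White liver (35 of 79, 33.1 to 55.9) and 74.6% in wild boar liver (47 of 63, 62.1 to 84.7). The Large White and wild boar intervals did not overlap, while those of Enshi black and wild boar did. Without arm shares of precursors outside the high-numbered ones, how often such intervals part over all precursors is not known here. The 5p counts were alike and the wild boar library had fewer 3p reads. mir-7138 was read mainly from the 5p arm, at 92.9%, 88.9% and 93.8% for Enshi black, Large White and wild boar. mir-7139 was at 70% (53.5 to 83.4), 81.8% (48.2 to 97.7) and 95.2% (76.2 to 99.9), with overlapping intervals.

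**Figure D4:**
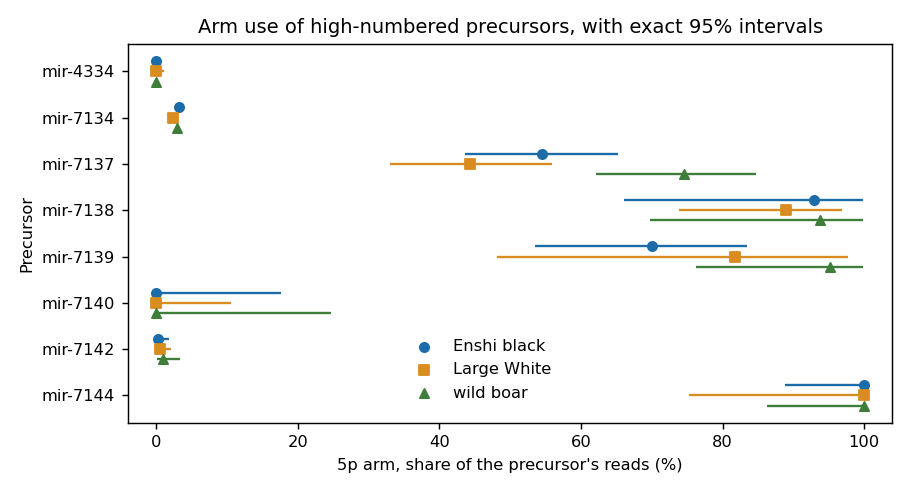
For the 8 precursors with 10 or more reads from the arms together in every library, the 5p arm's share of the reads (%) is plotted per library, with lines for exact 95% intervals. mir-7134, mir-7140, mir-7142 and mir-4334 lie near 0, mir-7144 lies at 100 and mir-7137 runs from 44.3 to 74.6.

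The genes around these miRNAs were looked up by precursor name in the RefSeq gene table of pig assembly Sscrofa11.1, a later build than the authors' Sscrofa10.2, so no positions are given. Of 116 precursors of the 111 names, 87 matched an entry and 83 of those are placed on a chromosome, and 42 of the 83 (50.6%) lie within the span of a protein-coding gene. The share over all placed RefSeq miRNA genes was 155 of 307 (50.5%), close to that of the high-numbered precursors. Among the precursors of the detected names it was 13 of 20 (65%), and among the other high-numbered precursors 29 of 63 (46%), a difference that was not tested. The table gives neither strand nor exons, so a span does not show that a miRNA is made from that gene's transcript.

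The abundant mir-7134 lies within TNRC6B, which encodes a partner of Argonaute in miRNA silencing. mir-7142 lies within MARK2, a kinase of cell polarity, mir-4334 within DNPEP, an aminopeptidase, and mir-9851 within HSPA12A, a distant relative of the heat shock chaperones. mir-7138 lies within FGFR4, the hepatocyte receptor through which the gut hormone FGF19 restrains bile acid synthesis. mir-9841 lies within F13A1, the catalytic subunit of clotting factor XIII, which is known from macrophages and platelets. mir-9843 lies within SGMS2, a sphingomyelin synthase, mir-9810 within MPC2, part of the mitochondrial pyruvate carrier, and mir-7137 within BUD23, a methyltransferase of ribosomal RNA. Of the other detected precursors, mir-7139 lies within E2F7, mir-7140 within REM1, mir-7144 within ARGLU1 and mir-9820 within SIL1. mir-4331, mir-7136, mir-7857, mir-9858, mir-9860 and both precursors of miR-9788-3p lie in no annotated protein-coding gene. mir-6782 is on an unplaced sequence, and mir-4332 matched no entry.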

How the data were processed

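Small RNA of 14 to 40 nucleotides from TRIzol-extracted total RNA was sequenced as single-end 50-base reads, per the labels' protocols. Read counts per mature miRNA on each of its precursors, per the file headers, were deposited by the authors. These are expected counts as deposited, in which the authors' counting divided some reads into fractions between precursors or names. The authors also deposited RPM, not used here. Sscrofa 10.2 was the genome build (submitters' processing notes). Aligner, counting tool and source of the miRNA names: not given in the sources used here.

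Counts were summed over precursors and rounded. Whole-number counts had been assumed in planning. Of 411 names, 6 that repeated the rows of another were left out, which left 405. Factors by TMM (edgeR 4.0.16, R 4.3.3) were 1.2 for Enshi black, 0.772 for Large White and 1.08 for wild boar. Ratios have exact conditional-binomial 95% intervals (scipy 1.17.1). The expression minimum uses CPM of the library totals. The computation was tested on simulated counts. All detected members are named, those past the minimum with their ratios. Ratios below the minimum were added after the data were seen. The members, marker lists and rules were chosen with earlier results of these data known. Alternatives were library totals, totals without miR-122, DESeq2 1.42.0 size factors, other minima, 4-fold, thinned libraries and shared-read miRNAs left out. Mature sequences were not used here.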

Additional observations from a re-analysis of the deposited data

How the results depend on the processing

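With 1 library per breed, leaving out a replicate was not possible. No paired analysis was possible because each breed has a single library, so the breeds share fewer than 2 replicate numbers. Of the 21 ratios of the 7 miRNAs past the minimum, 8 were called. DESeq2 size factors and thinning to the smallest total changed none of these calls. Library totals lost 2 and added 1, and totals without miR-122 lost 2. No called ratio changed sign under these 4 settings. Leaving out miR-4334-3p, whose reads are shared, left 2 higher in wild boar over Large White and 2 lower in Enshi black over wild boar.

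On library totals the median log2 ratio of the members was 0.36 in place of −0.28 for Enshi black over Large White and 0.45 in place of −0.03 for wild boar over Large White. The medians over all tested were then 0.60 and 0.46. On totals without miR-122 those of the members were 0.19 and 0.41, with 0.43 and 0.42 over all tested. At a minimum of 100 mean CPM, where 2 members are left by construction, the median was 0.73 for wild boar over Large White and −1.05 for Enshi black over wild boar, and with no minimum the latter was −0.35 in place of −0.74.

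For Enshi black over Large White, 0 members were higher, against 1 on library totals and 1 with no minimum, and 1 was lower, against 7 with no minimum, 0 at 100 CPM and 0 at 4-fold. For wild boar over Large White, 3 were higher, against 1 at 100 CPM and 0 at 4-fold, and 1 was lower, against 5 with no minimum and 0 on library totals, without miR-122, at 100 CPM and at 4-fold. For Enshi black over wild boar, 0 were higher, against 3 with no minimum, and 3 were lower, against 6 with no minimum, 1 at 100 CPM and 0 at 4-fold. Among the 24 members with at least 10 reads in a library, settings chosen after seeing the data, 1 was higher and 7 were lower in Enshi black over Large White. On library totals these became 6 and 4, and 4 were higher on totals without miR-122. Of all 286 miRNAs with at least 10 reads in a library, 4.55% were higher and 13.6% lower for this pair, against 27.6% and 5.24% on totals. The shares over all 208 tested at the main setting are given above. For the other settings no share over all miRNAs is given, so those counts are no result about the members.

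With a single read as the limit, 32 members were detected in the Enshi black and 33 in the Large White library. Of reads without miR-122, the members held 0.178% in Enshi black, 0.21% in Large White and 0.259% in wild boar liver. Thinning to the smallest total left 20, 17 and 21 members detected in Enshi black, Large White and wild boar liver, against 21, 17 and 21. Of the 26 calls among the 24, 6 have a count under 10.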
